A study of Mus musculus with 12 samples.

Results

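The genes described here encode the nuclear subunits of the mitochondrial respiratory chain and ATP synthase. They are all genes on the array whose symbol begins with Ndufa, Ndufb, Ndufc, Ndufs, Ndufv, Uqcr, Cox4 to Cox8 or Atp5, or is Sdha, Sdhb, Sdhc or Sdhd, and which have a probe set assigned to that symbol alone. The brightest such probe set was taken for each gene. This gave 88 genes of 18820 genes measured: 34 of complex I, 4 of complex II, 7 of complex III, 19 of complex IV, 17 of complex V, and 7 Ndufaf genes, which the rule takes in and which encode assembly factors of complex I. Ndufa4 and Ndufa4l2 were counted with complex IV, as was Cox7a2l, which encodes a factor of supercomplexes (assemblies of several complexes) and not a subunit. Cox7c, Uqcrc2 and Ndufa13 were present only in probe sets shared with another gene and were not analysed here.

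The study measured RNA on 12 whole-transcript arrays from hepatocytes and whole liver of mice without c-Jun N-terminal kinases in the hepatocyte. JNKΔhepa mice were C57BL/6 males aged 7 to 8 weeks with floxed Jnk1 deleted in hepatocytes by the Albf-Cre transgene, in which the albumin promoter and an alpha-fetoprotein enhancer drive the Cre recombinase, and with a constitutive Jnk2 knockout (Jnk2-/-) in every cell. WT mice were male Jnk1f/fJnk2+/+ littermates of the same age and background, so they also carried the floxed Jnk1 allele. All animals ate standard chow, and the labels name no treatment. The 4 groups were hepatocytes of JNKΔhepa mice, hepatocytes of WT mice, liver of JNKΔhepa mice and liver of WT mice, with 3 arrays in each, and each of the 6 mice gave both samples. Non-parenchymal cells of JNKΔhepa livers lack Jnk2 but keep Jnk1.

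Complex I (NADH dehydrogenase) and complex II (succinate dehydrogenase) pass electrons from NADH and succinate to coenzyme Q. Complex III passes them on to cytochrome c, and complex IV (cytochrome c oxidase) to oxygen. ATP synthase, complex V, uses the proton gradient that complexes I, III and IV build. Complex IV stands apart in that several of its nuclear subunits exist as a ubiquitous form and a tissue-restricted form encoded by separate genes. Hepatocytes are rich in mitochondria, which fuel gluconeogenesis, urea synthesis and fatty acid oxidation.

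The labels were checked first. Mapk9, which encodes JNK2, read 2.62, 2.57 and 2.29 (log2 signal) in JNKΔhepa hepatocytes, against 8.10, 7.74 and 8.05 in WT hepatocytes, and 2.85, 2.33 and 3.02 in JNKΔhepa livers, against 8.64, 8.69 and 8.59 in WT livers. Mapk8, which encodes JNK1, was lower by a log2 change of −0.61 in JNKΔhepa hepatocytes (limma adjusted p = 0.00183) and −0.40 in JNKΔhepa livers (adjusted p = 0.027, between 0.0285 and 0.12 when 1 array was left out). Mapk8 in liver no longer passed when any 1 of the 3 WT livers, or JNKΔhepa liver 1 or 2, was left out. The 9 measured hepatocyte markers, such as Alb and Ttr, were bright in all 4 groups and none passed the test between genotypes. Their summed linear signal was 39310 to 42540 in JNKΔhepa hepatocytes, 37810 to 41630 in WT hepatocytes, 44000 to 46290 in JNKΔhepa livers and 45330 to 45890 in WT livers. Within-group correlations between arrays were 0.9865 to 0.9928.

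Promoter sequences are shown for the gene that changed, Cox6b2, for its ubiquitous partner Cox6b1, and for Sdhd, a complex II subunit whose window holds an NRF1 and an ETS motif. Each is the 250 bases before the gene start in RefSeq (mouse build GRCm38.p6), written along the gene's strand. The windows are chr7:4753095-4753344 (minus strand) for Cox6b2, chr7:30626115-30626364 (minus strand) for Cox6b1 and chr9:50603850-50604099 (minus strand) for Sdhd. Capitals mark matches, on either strand, to the CCAAT box (CCAAT), the ETS motif (CCGGAAG) or the motif of nuclear respiratory factor 1, NRF1 (GCGC, any base, then TGCGC).
Cox6b2: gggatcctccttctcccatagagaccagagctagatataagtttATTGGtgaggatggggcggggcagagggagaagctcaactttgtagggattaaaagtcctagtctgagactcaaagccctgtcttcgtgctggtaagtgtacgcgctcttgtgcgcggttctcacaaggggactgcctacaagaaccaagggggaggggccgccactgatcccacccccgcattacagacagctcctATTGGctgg
Cox6b1: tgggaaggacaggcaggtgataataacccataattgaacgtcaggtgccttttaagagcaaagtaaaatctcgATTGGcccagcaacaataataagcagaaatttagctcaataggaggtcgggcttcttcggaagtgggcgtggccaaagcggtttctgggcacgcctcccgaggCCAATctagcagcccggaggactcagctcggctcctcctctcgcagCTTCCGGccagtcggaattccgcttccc
Sdhd: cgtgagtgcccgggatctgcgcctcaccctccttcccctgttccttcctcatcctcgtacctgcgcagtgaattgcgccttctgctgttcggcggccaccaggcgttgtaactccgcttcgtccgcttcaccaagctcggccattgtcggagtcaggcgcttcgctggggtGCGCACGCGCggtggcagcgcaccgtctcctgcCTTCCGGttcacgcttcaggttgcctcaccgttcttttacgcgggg

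The Cox6b2 window holds a CCAAT box 206 bases and another 9 bases before the gene start, counted from the first base of the match. The Cox6b1 window has CCAAT boxes 177 and 74 bases and an ETS motif 28 bases before the start. The Sdhd window has an NRF1 motif 79 bases and an ETS motif 46 bases before the start. RefSeq windows were matched for 73 of the 88 genes. The NRF1 motif was in 13 of these 73 (17.8%), including Ndufa8, Sdha, Sdhd and Cox6a1, against 3.86% of 27025 genes with a window of the same length. The ETS motif was in 16.4% of the members' windows and 7.05% of all windows, and the CCAAT box in 43.8% and 34.5%. The motif of AP-1 (TGANTCA), the dimer that contains the JNK substrate c-Jun, was in 5.48% of the members' windows and 6.87% of all windows. The cAMP response element (TGACGTCA) was in 5.48% and 1.62%, and the YY1 motif (AAGATGG) in 0% and 4.53%. The motifs do not overlap in the windows printed. A match is a run of letters and not a measured binding site.

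Between genotypes, 1 of the 88 genes passed the test in either tissue, and it was the same gene, Cox6b2. In liver this is 1.14% of the members, beside 0.925% of all genes that passed (174 of 18820). In hepatocytes it is again 1.14%, beside 0.84% of all genes (158 of 18820). Among all genes, 0.558% passed as higher in JNKΔhepa livers, and in JNKΔhepa hepatocytes 0.367% passed as higher and 0.473% as lower. The members' shares are close to the background, so the count describes Cox6b2 and not the family. The test was limma on the log2 values, with Benjamini-Hochberg adjustment over all 18820 genes and a threshold of 0.05.

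Cox6b2 encodes the tissue-restricted form of complex IV subunit 6B, known from testis, and Cox6b1 the form found in most tissues. Cox6b2 read 5.61, 5.29 and 5.35 (log2 signal) in JNKΔhepa hepatocytes, against 3.42, 3.96 and 3.11 in WT hepatocytes. It read 5.27, 5.05 and 5.03 in JNKΔhepa livers, against 3.50, 3.66 and 3.71 in WT livers. All JNKΔhepa arrays were above all WT arrays of the same tissue. The WT liver readings were below the array's median over all probe sets on all 3 arrays, and 1 WT hepatocyte reading was as well. The estimated fold may therefore understate the change, and it also carries the spread of 3 arrays a group. In JNKΔhepa hepatocytes Cox6b2 was an estimated 3.78-fold higher than in WT hepatocytes (log2 change 1.92, SE 0.174, limma adjusted p = 0.000181). In JNKΔhepa livers the gene was an estimated 2.82-fold higher than in WT livers (log2 change 1.49, SE 0.174, adjusted p = 0.00134). Leaving out 1 array at a time kept the change between 1.72 and 2.15 in hepatocytes (adjusted p 1.8e-05 to 0.0018) and between 1.42 and 1.54 in liver (adjusted p 0.000103 to 0.0117). The effects in the tissues differed by 0.42 (SE 0.245), which did not pass the test of the difference (adjusted p = 0.761). Cox6b2 was singled out with its change in these data already known.

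Its partner Cox6b1 read 9.89, 9.78 and 10.06 in JNKΔhepa hepatocytes, against 9.79, 9.82 and 9.87 in WT hepatocytes. It read 10.56, 10.38 and 10.31 in JNKΔhepa livers, against 10.34, 10.03 and 10.18 in WT livers. The genotypes overlapped in both tissues. The log2 change of Cox6b1 was 0.085 (SE 0.104, limma adjusted p = 0.819) in hepatocytes and 0.23 (SE 0.104, adjusted p = 0.382) in liver, with 95% intervals of −0.14 to 0.31 and 0.0071 to 0.46.

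**Figure D1:**
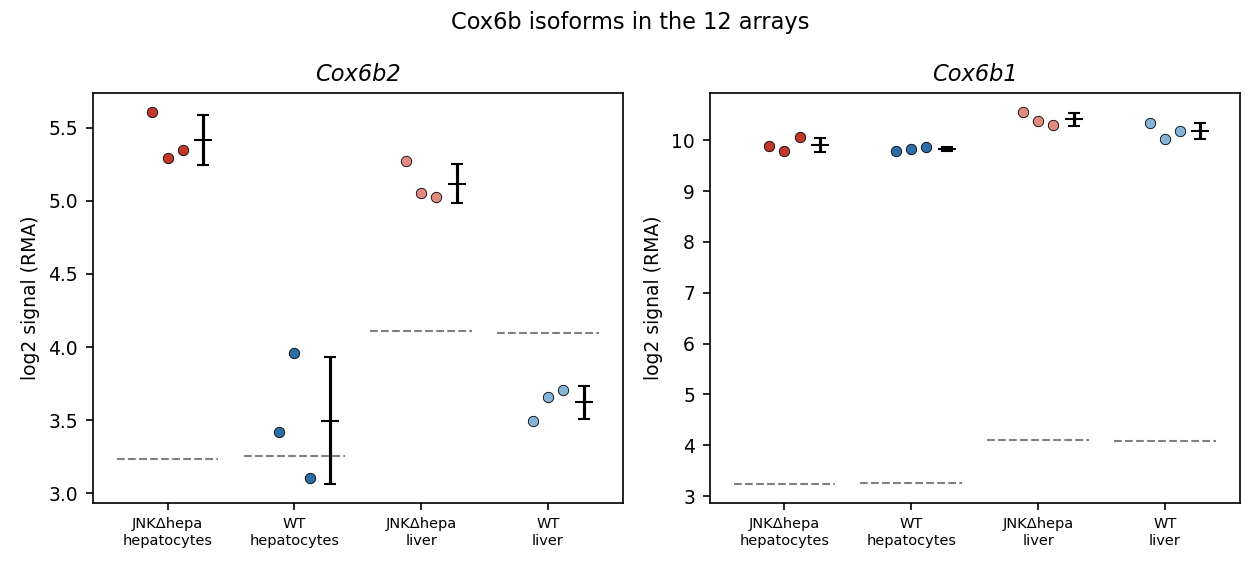
Log2 signal of Cox6b2 (left) and Cox6b1 (right) on each of the 12 arrays, by group on the x axis, with 3 arrays a group. Points are arrays, the black bars are the mean and SD, and the dashed line is the mean over the group's arrays of the median over all probe sets. The JNKΔhepa points of Cox6b2 lie above every WT point of the same tissue, and the WT liver points lie below the dashed line; for Cox6b1 the genotypes overlap.

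The chromosomal neighbours of Cox6b2 were measured as well. It lies on chromosome 7, with Ptprh, Tmem86b, Ppp6r1, Hspbp1 and Kmt5c as the 5 measured genes before it and Fam71e2, Il11, Tmem190, Tmem238 and Rpl28 as the 5 after it in the RefSeq gene order. None of the 10 passed the test in either tissue. Tmem238 had a log2 change of 0.42 in liver (limma adjusted p = 0.177) and Kmt5c, the nearest measured gene before Cox6b2, of 0.27 without overlap (adjusted p = 0.339). In hepatocytes Kmt5c had 0.25 with overlap (adjusted p = 0.369). Tmem190 had 0.29 in hepatocytes (adjusted p = 0.336) and −0.043 in liver. Of the 8 measured testis germ cell markers, such as Prm1 and Ddx4, none passed either, and their summed signal was 35.7 to 40.1 in JNKΔhepa hepatocytes, 37.2 to 39.6 in WT hepatocytes, 48.6 to 50.9 in JNKΔhepa livers and 48.1 to 51.8 in WT livers.

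The other tissue-restricted forms of complex IV subunits did not pass the test. Cox4i2, Cox6a2, Cox7b2, Cox8b and Cox8c, and the Ndufa4 paralogue Ndufa4l2, read below the array median on all 12 arrays, so these arrays give no firm level for them. Their log2 changes were between −0.18 (Cox8c) and 0.17 (Cox7b2) in hepatocytes and between −0.10 (Cox4i2) and 0.025 (Cox7b2) in liver. The ubiquitous forms Cox4i1, Cox6a1, Cox7a2, Cox7b and Cox8a were above the array median on every array. Their log2 changes ran from −0.10 (Cox7a2) to 0.15 (Cox6a1) in hepatocytes and from −0.067 (Cox7b) to 0.15 (Cox4i1) in liver, and none passed the test.

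Cox7a1, the form of subunit 7A known from heart and skeletal muscle, read 4.0, 4.08 and 4.58 in JNKΔhepa hepatocytes, against 4.65, 4.48 and 4.99 in WT hepatocytes. In liver it read 5.33, 5.04 and 5.28 in JNKΔhepa animals, against 4.83, 4.64 and 5.41 in WT animals. The genotypes overlapped in each tissue. Its log2 change of −0.48 in hepatocytes (SE 0.202, limma adjusted p = 0.345) was the lowest of the 88, and it was 0.26 in liver (adjusted p = 0.679). The difference between these effects, −0.74 (SE 0.286), did not pass either (adjusted p = 0.615).

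Markers of Kupffer, sinusoidal endothelial and stellate cells were mostly lower in JNKΔhepa than in WT hepatocyte samples and stand beside every hepatocyte result. Over all genes, 9516 of 18820 had a log2 change below 0 in hepatocytes. Of 11 Kupffer cell and macrophage markers, 11 were below 0 (median log2 change −0.77), with summed signals of 451.3 to 702.4 in JNKΔhepa hepatocytes and 727.4 to 1213 in WT hepatocytes. Of 10 sinusoidal endothelial markers, 10 were below 0 (median −0.53, sums 1155 to 1655 against 1575 to 2063 in WT). Of 10 stellate cell markers, 9 were below 0 (median −0.34, sums 383.5 to 528.4 against 563.5 to 734.1 in WT). Among these markers, C1qb (log2 change −1.08, limma adjusted p = 0.0225) and Ecm1 (−0.71, adjusted p = 0.01) passed the test, beside 0.473% of all genes that passed as lower. An unadjusted p under 0.05 was seen for 9 of 11 Kupffer cell, 10 of 10 endothelial and 5 of 10 stellate markers, beside 12.6% of all genes. The C1qb call was lost (adjusted p up to 0.108) without WT hepatocyte array 1 or 3 or JNKΔhepa hepatocyte array 2 or 3, and the Ecm1 call (up to 0.0606) without WT array 3 or JNKΔhepa array 2 or 3. The endothelial marker with the smallest p was Cdh5 (−0.60, adjusted p = 0.0568). In whole liver the Kupffer sums overlapped, at 3175 to 3667 in JNKΔhepa and 3088 to 4442 in WT livers, as did the endothelial sums, at 4849 to 5371 and 4527 to 5046. The stellate sums did not overlap, at 2800 to 3135 in JNKΔhepa livers and 3256 to 3420 in WT livers, with Lrat at −0.61 (adjusted p = 0.0767) and 0 of 10 markers past the test. The sums of 2 erythroid markers did not overlap in hepatocytes either, at 299.7 to 380.1 in JNKΔhepa and 240.4 to 267 in WT samples. No cholangiocyte, lymphocyte, neutrophil, erythroid, muscle or adipose marker passed in either tissue. In hepatocytes the median log2 changes were 0.059 for cholangiocyte, −0.021 for lymphocyte, −0.056 for neutrophil and monocyte, and 0.23 for erythroid markers. In such samples fewer cells of a type and less RNA per cell cannot be told apart. The part of these cells in the values of Cox7a1 and the other members was not tested.

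In complex I the median log2 change of the 34 subunits was 0.0079 in hepatocytes and 0.053 in liver, with 21 and 25 of them above 0. Ndufa1, an accessory subunit of the membrane arm, read 7.15, 7.16 and 7.46 in JNKΔhepa livers, against 6.94, 6.98 and 6.93 in WT livers. The groups did not overlap, and the log2 change was 0.31 (SE 0.102, limma adjusted p = 0.215), the smallest p of the complex in liver. In hepatocytes the smallest p was that of Ndufc1, at −0.13 (SE 0.0801, adjusted p = 0.582). The other probe set of Ndufc1 had −0.0016 in hepatocytes. Ndufs3, a core subunit of the peripheral arm, had the smallest p for a difference between tissues, with 9.67, 9.60 and 9.62 in JNKΔhepa livers, against 9.44, 9.34 and 9.51 in WT livers, and a hepatocyte effect lower by 0.22 than the liver effect (SE 0.117, adjusted p = 0.729). No complex I subunit passed any genotype test.

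The assembly factor Ndufaf1 had the largest change of the 88 genes in liver after Cox6b2. It read 8.02, 8.08 and 7.93 in JNKΔhepa livers, against 7.78, 7.74 and 7.54 in WT livers, without overlap (log2 change 0.32, SE 0.0905, limma adjusted p = 0.13). Ndufaf4, another assembly factor, read 7.19, 6.88 and 6.82 in JNKΔhepa hepatocytes, against 6.74, 6.71 and 6.55 in WT hepatocytes (0.30, SE 0.11, adjusted p = 0.279), and had a log2 change of −0.043 in liver. The difference between its effects, 0.34 (SE 0.156), did not pass the test (adjusted p = 0.69). The 7 Ndufaf genes had a median change of 0.088 in hepatocytes and −0.018 in liver.

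Sdhd, which encodes a membrane anchor of complex II, read 8.41, 8.28 and 8.39 in JNKΔhepa hepatocytes, against 8.90, 8.70 and 8.50 in WT hepatocytes. These groups did not overlap, while in liver they did, with 9.14, 9.14 and 9.25 in JNKΔhepa and 9.11, 9.06 and 9.27 in WT animals. Its log2 change was −0.34 in hepatocytes (SE 0.104, limma adjusted p = 0.17) and 0.029 in liver (adjusted p = 0.953), and the difference of −0.37 did not pass the test (SE 0.147, adjusted p = 0.627). Sdha, the flavoprotein subunit, had the smallest p of complex II in liver (0.10, adjusted p = 0.663).

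In complex III the 7 genes had a median log2 change of 0.029 in both tissues, and no gene had genotype groups that did not overlap. The smallest p belonged to Uqcrq, a small structural subunit, in hepatocytes (0.15, SE 0.0981, limma adjusted p = 0.603) and to Uqcrc1, a core protein, in liver (0.14, SE 0.106, adjusted p = 0.67). For the difference between tissues it was that of Uqcrb (0.11, adjusted p = 0.886). The 17 complex V genes had a median of −0.013 in hepatocytes and 0.074 in liver, with 7 and 13 of them above 0. Atp5g2, a gene for the c ring of ATP synthase, read 10.57, 10.59 and 10.58 in JNKΔhepa livers, against 10.41, 10.35 and 10.51 in WT livers (0.15, SE 0.0795, adjusted p = 0.471). Atp5l, subunit g, read 7.62, 7.73 and 7.79 in JNKΔhepa hepatocytes, against 7.80, 7.87 and 7.90 in WT hepatocytes (−0.14, SE 0.0877, adjusted p = 0.567). Both pairs of groups stood apart without passing the test. For the difference between tissues the smallest p of complex V was that of Atp5mpl, at −0.20 (SE 0.117, adjusted p = 0.764).

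**Figure D2:**
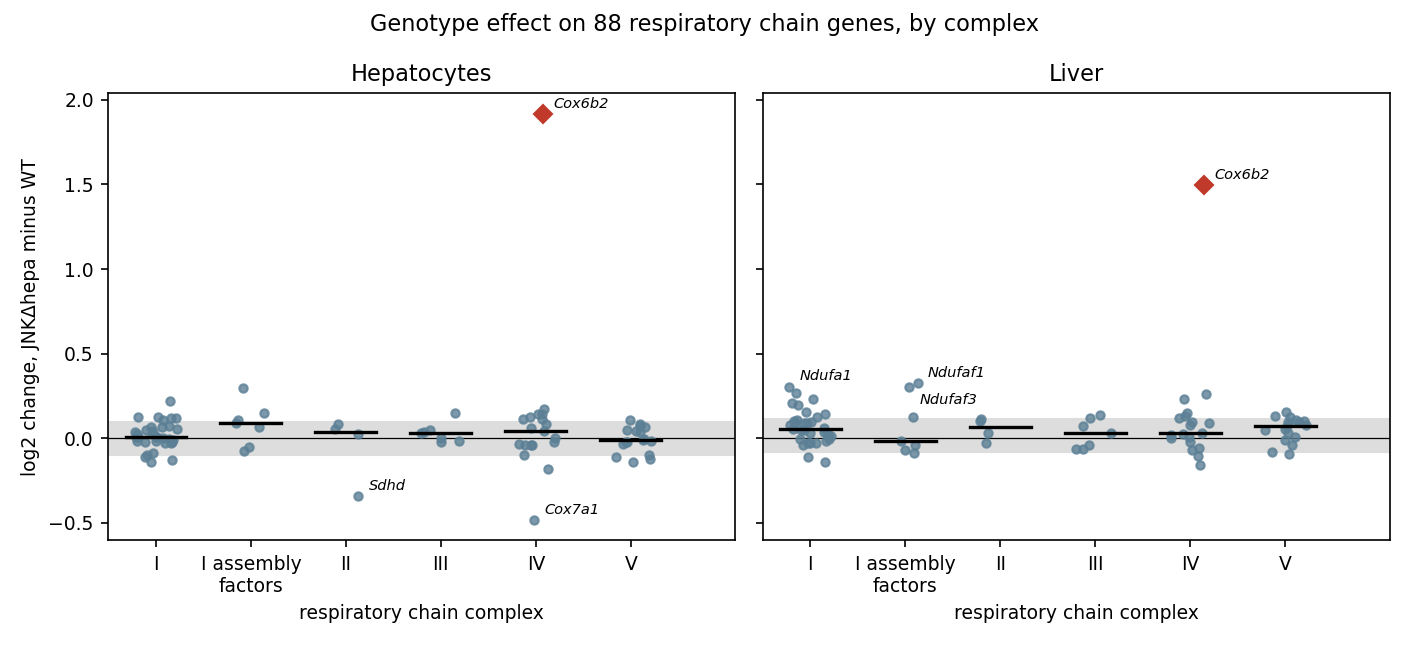
Log2 change, JNKΔhepa minus WT, of each of the 88 genes (y axis) by complex (x axis), in hepatocytes (left) and liver (right). Circles are genes that did not pass the test, red diamonds are genes that passed, black bars are the median of each complex, and the grey band holds the middle 50% of all 18820 genes; genes beyond 0.3 in either direction are named. Cox6b2 stands alone near the top of both panels, and the medians of all complexes lie inside the grey band.

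Over all 88 genes the median log2 change in hepatocytes was 0.018, beside −0.0018 over all genes, and in liver it was 0.053, beside 0.016 over all genes. In hepatocytes 51 members were above 0 and 37 below, and in liver 62 were above and 26 below. Of all genes, 49.44% were above 0 in hepatocytes and 54.35% in liver. Apart from Cox6b2, the changes ran from −0.48 (Cox7a1) to 0.30 (Ndufaf4) in hepatocytes and from −0.16 (Cox7a2l) to 0.32 (Ndufaf1) in liver. Before adjustment, 4 members had a p under 0.05 in hepatocytes, which is 4.55% of them against 12.6% of all genes. In liver there were 7, which is 7.95% against 12.5% of all genes, and all 7 were higher: Ndufa1, Ndufa8, Ndufs3, Ndufaf1, Ndufaf3, Cox6b1 and Cox6b2. Genotype groups did not overlap for 10 members in hepatocytes (11.4%, against 14.7% of all genes), with 5 higher (7.36% of all genes) and 5 lower (7.32%). In liver they did not overlap for 23 members (26.1%, against 20.4% of all genes). Of these 23, 20 were higher (12.9% of all genes), and the 3 that were lower (7.57% of all genes) were Ndufs8, Ndufv2 and Atp5md.

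The hepatocyte effect minus the liver effect passed the test for 0 of the 88 genes by limma, beside 2 of all 18820 genes (0.0106%). Before adjustment, 4 members (4.55%, against 7.22% of all genes) had a p under 0.05: Sdhd and Cox7a1 below 0, and Ndufaf4 and Cox7a2l above 0. The median difference was −0.058 over the members and −0.022 over all genes, and 59 of the 88 were below 0, beside 10410 of all 18820 genes. In complex V, 16 of 17 genes were below 0, with a median of −0.065. The 12 arrays are shared between these values, and the liver and hepatocyte samples came from the same mice.

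The precision of the estimates is given by the 95% intervals of the log2 change, which reached a median of 0.196 to each side of the estimate in either tissue. This reach is not the smallest change that the adjusted test could call: Ndufaf1 in liver, at 0.32, did not pass (limma adjusted p = 0.13). In hepatocytes 86 of the 88 intervals lay within a 1.5-fold change in either direction, the exceptions being Cox6b2 and Cox7a1. In liver 85 did, the exceptions being Cox6b2, Cox7a1 and Ndufb6. For the difference between tissues 81 did, with a median reach of 0.277 to each side, and the exceptions were Cox4i2, Cox6b2, Cox7a1, Ndufaf4, Ndufb3, Ndufb6 and Sdhd. Intervals are not adjusted for the number of genes. For the 6 dim genes they describe dim readings and not RNA levels. The result also depends on the probe set for some genes: Cox7a2l had a log2 change of −0.16 in liver on the probe set used and 0.25 on its other probe set, and Ndufa11 had −0.026 and 0.23.

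Hepatocytes and whole liver could be compared only with care, because the deposited values are on different scales: the array medians were 3.22 to 3.28 in hepatocytes and 4.09 to 4.12 in livers. On these values 83 of the 88 genes passed the test as lower in hepatocytes, which is 94.3%, beside 92.3% of all genes that passed and 91.5% that passed as lower. The members' median difference was −0.46 (hepatocytes minus liver, log2), above the −0.58 of all genes. The 5 genes that did not pass were Ndufa6, Ndufb3, Uqcrfs1, Cox6b2 and Cox8c. The 5 largest differences were those of Atp5k (−0.99), Ndufaf5 (−0.94), Cox6a2 (−0.85), Cox8b (−0.82) and Ndufa12 (−0.80), of which Cox6a2 and Cox8b were dim on all arrays. Markers of other liver cells were far lower in hepatocytes, with median differences of −2.19 for Kupffer cell, −1.91 for endothelial and −2.32 for stellate markers, and their part in the tissue differences was not tested.

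After quantile normalisation over all 12 arrays, which sets both tissues to 1 scale, 26 of the 88 genes passed, 19 as higher and 7 as lower in hepatocytes, beside 45.1% of all genes (23.1% higher and 22% lower). The median difference was 0.050 over the members and 0.016 over all genes. Among the 81 genes above the array median on all 12 arrays, the 3 with the largest increase were Ndufb3, a complex I accessory subunit (0.63, SE 0.123, limma adjusted p = 0.00121), Uqcrfs1, the Rieske iron-sulfur protein of complex III (0.57, SE 0.0586), and Ndufa6, another complex I accessory subunit (0.52, SE 0.0826, adjusted p = 0.000273). Cox6b2 also passed as higher (adjusted p = 0.000108), but its readings were dim in all WT livers and on 1 WT hepatocyte array, so no size is given; its joint means in JNKΔhepa mice were 5.77 in hepatocytes and 4.68 in liver. Uqcrfs1 had 7.87 and 7.90 in the hepatocyte groups of JNKΔhepa and WT mice, against 7.32 and 7.32 in their livers. The lowest of the same 81 genes were Atp5k, subunit e of ATP synthase (−0.26, SE 0.0712, adjusted p = 0.0102), Ndufa12 (−0.22, adjusted p = 0.00724) and Cox4i1 (−0.20, adjusted p = 0.0167). With each array centred on its own median instead, which shifts all genes of an array alike, the members' median was 0.40, beside 0.27 over all genes, and 76 passed as higher, beside 59.6% of all genes. The sign of the members' median thus follows the scale chosen. On the deposited and on the jointly normalised values it was above the median of all genes. Median centring cannot change the distance between these medians from that on the deposited values, so it gives no further evidence on that distance.

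**Figure D3:**
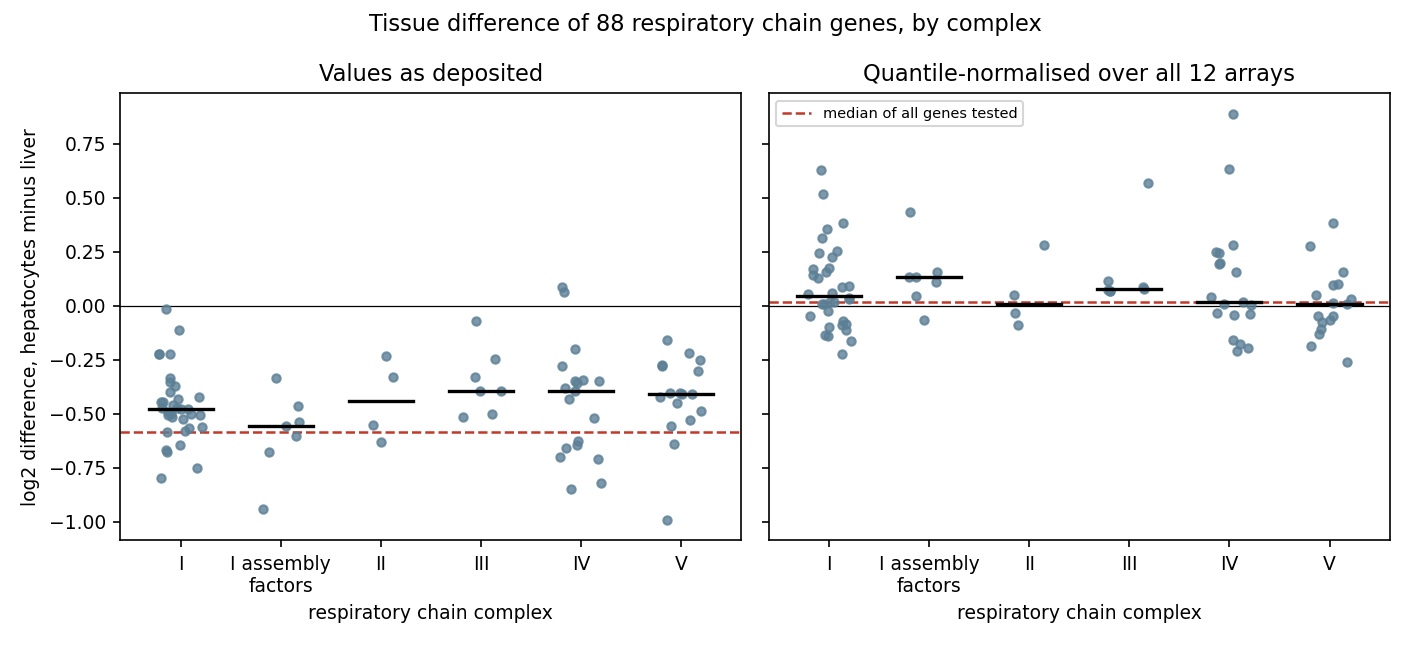
Log2 difference, hepatocytes minus liver averaged over the genotypes (y axis), of each of the 88 genes by complex (x axis), on the values as deposited (left) and after quantile normalisation over all 12 arrays (right). Points are genes, black bars are the median of each complex, and the red dashed line is the median of all 18820 genes. On the left 86 of 88 points lie below 0; on the right 59 lie above 0.

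Genes that work with the respiratory chain but are outside the symbol rule were taken from lists of known members of each process. Among 37 measured assembly factors of complexes I to V, Lyrm7 passed in both tissues and was lower. LYRM7 is a chaperone that handles the Rieske iron-sulfur protein before it enters complex III. It read 3.36, 3.22 and 2.95 in JNKΔhepa hepatocytes, against 3.89, 3.91 and 4.11 in WT hepatocytes (log2 change −0.80, SE 0.108, limma adjusted p = 0.00361). In liver it read 3.52, 3.35 and 3.52 in JNKΔhepa animals, against 4.11, 4.20 and 4.15 in WT animals (−0.69, SE 0.108, adjusted p = 0.00952). The groups did not overlap, and 5 of the 6 JNKΔhepa readings were below the array median, so the estimated decrease may understate the change. The call held when any 1 array was left out, with an adjusted p of at most 0.0243 in hepatocytes and 0.0479 in liver. Lyrm7 lies on chromosome 11, as does the knocked-out Mapk9, with 68 of the 1469 measured genes of the chromosome between them, and the part of this position in the decrease was not tested. Uqcrfs1, whose product LYRM7 handles, had log2 changes of −0.016 in hepatocytes and 0.029 in liver (adjusted p = 0.97 and 0.942).

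Nubpl, an iron-sulfur cluster factor for complex I, was the other assembly factor that passed, and it was higher in liver. It read 4.71, 4.90 and 4.66 in JNKΔhepa livers, against 4.29, 4.12 and 4.26 in WT livers (0.53, SE 0.0996, limma adjusted p = 0.025), and had 0.046 in hepatocytes (adjusted p = 0.91). The difference between these effects, −0.49 (SE 0.141), did not pass the test (adjusted p = 0.452). The liver call was lost, with an adjusted p up to 0.104, without WT liver 1 or 2 or JNKΔhepa liver 1 or 2. It was also lost with the 6 liver arrays fitted alone (adjusted p = 0.0599).

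Among 9 further subunits and electron carriers, such as cytochrome c, Gpd2 passed in both tissues and was higher. Gpd2 encodes the mitochondrial glycerol-3-phosphate dehydrogenase, which feeds electrons from cytosolic NADH to coenzyme Q. It read 7.52, 7.53 and 7.53 in JNKΔhepa hepatocytes, against 6.89, 7.15 and 7.05 in WT hepatocytes (0.50, SE 0.0903, limma adjusted p = 0.0221). In liver it read 7.83, 7.88 and 7.80 in JNKΔhepa animals, against 7.11, 7.14 and 7.35 in WT animals (0.64, SE 0.0903, adjusted p = 0.0048). No groups overlapped. The liver call held without any 1 array. The hepatocyte call was lost, with an adjusted p up to 0.0921, without WT hepatocyte array 1 or 3 or JNKΔhepa hepatocyte array 2 or 3, and with the hepatocyte arrays fitted alone (0.0979).

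Of 12 measured genes of coenzyme Q synthesis and handling, 3 passed as higher in liver, beside 0.558% of all genes, and 0 passed in hepatocytes. An unadjusted p under 0.05 was seen for 6 of the 12 in liver (12.5% of all genes) and 2 in hepatocytes (12.6% of all genes), where Pdss2 had the smallest p. Coq5, a methyltransferase of the pathway, read 8.91, 9.02 and 9.03 in JNKΔhepa livers, against 8.34, 8.47 and 8.39 in WT livers (0.59, SE 0.0969, limma adjusted p = 0.0113). Pdss2, which helps build the isoprenoid tail, read 6.72, 6.68 and 6.59 in JNKΔhepa livers, against 6.16, 6.25 and 6.12 in WT livers (0.49, SE 0.0956, adjusted p = 0.0311). These groups stood apart, and the hepatocyte changes were 0.32 for Coq5 (adjusted p = 0.17) and 0.37 for Pdss2 (adjusted p = 0.108). Coq10a, a coenzyme Q binding protein, read 8.36, 8.29 and 8.43 in JNKΔhepa livers, against 7.82, 7.91 and 8.10 in WT livers (0.42, SE 0.0858, adjusted p = 0.0402). Its hepatocyte change was −0.050 (adjusted p = 0.884), and the difference between the tissues of −0.47 did not pass the test (adjusted p = 0.398). The median over the 12 genes was 0.12 in hepatocytes and 0.21 in liver, where the changes ran from −0.50 to 0.66. Liver groups did not overlap for 6 genes that were higher (12.9% of all genes) and 1 that was lower (7.57% of all genes). The Coq5 call was lost (adjusted p up to 0.0606) without WT liver 1 or JNKΔhepa liver 2 or 3, and the Pdss2 call (up to 0.126) without any 1 of the 6 livers. The Coq10a call was lost in 10 of the 12 fits without 1 array (up to 0.161); the exceptions were the fits without WT liver 3 and without JNKΔhepa hepatocyte array 1.

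Among 18 regulators of mitochondrial biogenesis, 1 fell and 1 rose in JNKΔhepa hepatocytes, and 0 passed in liver. There 3 of the 18 had an unadjusted p under 0.05, beside 12.5% of all genes, and Gabpa had the smallest (0.28, limma adjusted p = 0.203). Ppargc1a, which encodes the coactivator PGC-1α of respiratory chain genes, read 6.45, 6.23 and 6.47 in JNKΔhepa hepatocytes, against 7.46, 7.15 and 7.57 in WT hepatocytes (−1.01, SE 0.157, adjusted p = 0.00919). In liver it read 7.41, 7.67 and 7.66 in JNKΔhepa animals, against 7.35, 7.41 and 7.94 in WT animals (0.013, adjusted p = 0.99). Hepatocyte groups stood apart and liver groups overlapped, but the difference between the tissues, −1.02 (SE 0.222), did not pass the test (adjusted p = 0.358). Pprc1, a related coactivator, read 4.92, 4.87 and 5.33 in JNKΔhepa hepatocytes, against 3.93, 4.45 and 4.20 in WT hepatocytes (0.84, SE 0.147, adjusted p = 0.0175), and had 0.21 in liver (adjusted p = 0.63). The difference between the tissues passed the test for 0 of the 18 regulators. The Ppargc1a call was lost (adjusted p up to 0.0564) without WT hepatocyte array 3 or JNKΔhepa hepatocyte array 2. The Pprc1 call was lost (up to 0.0777) without WT hepatocyte array 1 or 3 or JNKΔhepa hepatocyte array 3, and with the hepatocyte arrays fitted alone (0.0928).

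**Figure D4:**
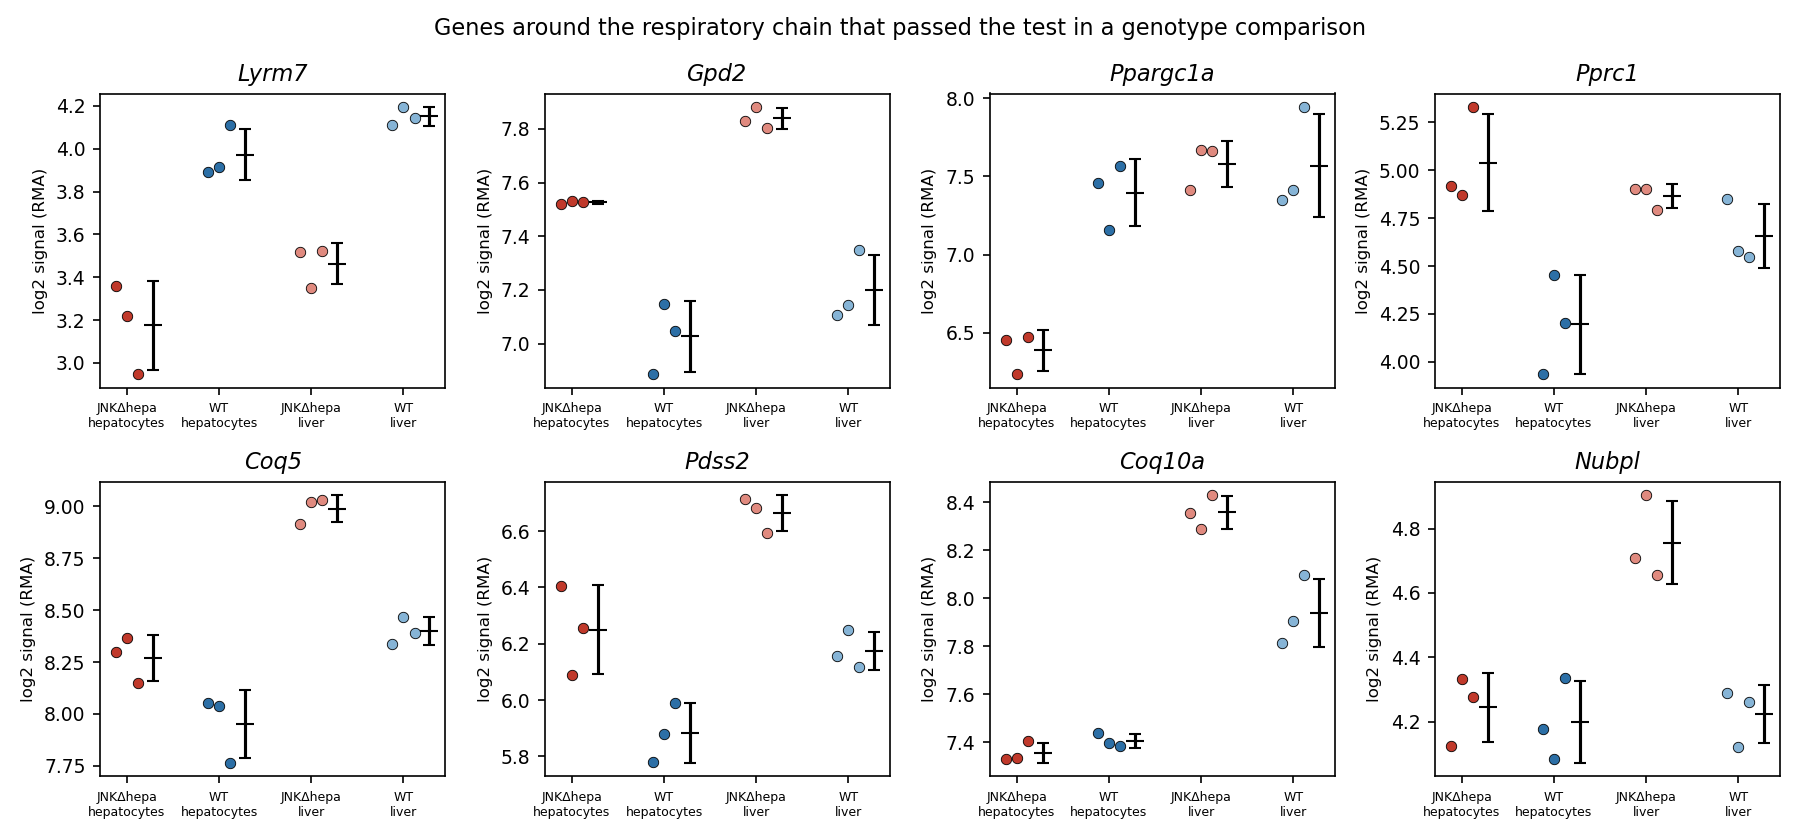
Log2 signal on each of the 12 arrays, by group, of the 8 genes around the respiratory chain that passed the test in a genotype comparison. Points are arrays (3 a group), and black bars are the mean and SD; each panel has its own y axis. Lyrm7 is lower and Gpd2 higher in JNKΔhepa samples of both tissues, and the JNKΔhepa hepatocytes are lowest for Ppargc1a.

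The remaining lists held no gene that passed. In each of them 1 or 2 genes had an unadjusted p under 0.05 in each tissue, beside 12.6% of all genes in hepatocytes and 12.5% in liver. The 12 genes of mitochondrial DNA expression had a median log2 change of 0.092 in hepatocytes and 0.14 in liver; the smallest p was that of Lonp1 in hepatocytes (0.25, limma adjusted p = 0.222) and of Top1mt in liver (0.24, adjusted p = 0.239). The 16 citrate cycle genes had medians of −0.026 and 0.042, with Idh2 at −0.34 in hepatocytes (adjusted p = 0.332) and Idh3b at 0.18 in liver (adjusted p = 0.346). The 20 genes of mitochondrial carriers, uncoupling and membrane shape had medians of −0.015 and −0.0051. Among them the ADP/ATP carrier gene Slc25a4 had −0.70 in hepatocytes (adjusted p = 0.0664) and Mfn2, a mitochondrial fusion gene, 0.20 in liver (adjusted p = 0.291). The subunits encoded by mitochondrial DNA were not analysed here.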

How the data were processed

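RNA of 12 samples was measured on whole-transcript arrays. The authors deposited 1 table of log2 values for 35556 probe sets; per the submitters' processing notes they come from RMA, whose version, like the log base, is not given in the sources used here, and the log2 scale was read from the range of the values. The array medians differ between tissues, so the tissues appear to have been normalised separately, which would shift every difference between them. Of the probe sets, 21218 name 1 gene in the platform annotation, 1881 several and 12457 none; the brightest single-gene probe set was kept for each of 18820 genes. Samples were grouped by their labels. The members and lists were chosen with earlier results of these data known.

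limma 3.58.1 (R 4.3.3) fitted 4 group means over all 12 arrays, with 8 residual degrees of freedom, two-sided moderated tests and Benjamini-Hochberg adjustment over all genes. The genotype effect in each tissue, the difference between these effects, and hepatocytes minus liver were tested at an adjusted p of 0.05. A reading below its array's median over all probe sets is called dim, and a fold against a group with a dim array may understate the change. This rule was chosen after values were seen. The table holds no detection calls, and the precision is limited by 3 arrays a group.

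Liver and hepatocyte samples were paired by mouse, per the mouse numbers in the labels. Deviations from the group means of the samples of 1 mouse correlated at −0.013 to 0.098 over all genes and −0.13 to 0.34 over the members. The fitting script was tested on simulated data. Named genes are the members and list genes that passed a genotype test, the smallest p of each complex or list, the Cox isoform pairs, the largest tissue differences, and the neighbours of Cox6b2. The alternatives were mouse as a random block, only the arrays of the tissue compared, quantile normalisation over all arrays, median centring, a filter on dim probe sets, the mean of a gene's probe sets, an intensity trend in the variance prior, and leaving out each array.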

Additional observations from a re-analysis of the deposited data

How the results depend on the processing

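With the replicate block (mouse as a random block, consensus correlation 0.0487) 1 member passed in liver, 1 in hepatocytes and 0 for their difference, Cox6b2 had an adjusted p of 0.0013 in liver and 0.000176 in hepatocytes, and no other call printed above changed. Under every alternative run, Cox6b2 was the only member that passed between genotypes in either tissue. Without 1 array, the members' median log2 change was 0.036 to 0.073 in liver, 0.00020 to 0.038 in hepatocytes, −0.084 to −0.031 for the difference and −0.47 to −0.44 for hepatocytes minus liver, where 82 or 83 members passed. The tissue comparison changed with the scaling: 26 members passed after joint quantile normalisation, with a median of 0.050, and the median was 0.40 with median-centred arrays; the deposited values gave 83 and −0.46. Counts over all genes were less stable: 80 to 225 genes passed in liver and 61 to 387 in hepatocytes without 1 array, and 77 in hepatocytes with the hepatocyte arrays fitted alone. For the difference 4 passed with an intensity trend and 1 to 7 without 1 array, and for the tissues 8481 after joint quantile normalisation and 10103 of 10724 genes kept by the dim filter, which kept 82 members. Calls lost under other settings, not all of which are named here, included that of Coq10a in liver. It was lost with liver arrays alone (limma adjusted p = 0.115), joint quantile normalisation (0.0502), median centring (0.0548) and the mean of its probe sets (0.17). The calls of C1qb and Ecm1 in hepatocytes were lost with hepatocyte arrays alone (0.0928 and 0.0807). Some of these fits used fewer arrays or genes, and the cause of the shifts was not tested. With 3 arrays a group and dim readings for 6 members, small changes of the tissue-restricted isoforms are beyond reach here.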
